A study of Mus musculus with 12 samples.

Results

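The genes described here are the 3 fibroblast growth factor (FGF) receptor genes Fgfr1, Fgfr2 and Fgfr3 and 7 genes that respond to or restrain the signal below them, Spry1, Spry2, Spry4, Etv1, Etv4, Etv5 and Dusp6. They were chosen by symbol and not by a rule on their values, though with earlier results of these data known, and make 10 of the 46603 genes counted. All 10 passed the filter on low counts in every comparison. FGF receptors are tyrosine kinases at the cell surface that, once a ligand is bound together with heparan sulfate, activate the Ras, RAF, MEK and ERK relay. ERK in turn switches on the Etv transcription factors and a set of inhibitors, the Sprouty proteins and the phosphatase DUSP6, which act back on the pathway, so that the level of these transcripts is widely used as a readout of FGF and ERK activity. In the embryonic telencephalon FGF ligands from the rostral midline pattern the cortex and FGF receptors act in radial glia, the neural stem cells of the cortex, whereas in the postnatal cortex ERK is also activated by neuronal activity and by neurotrophins.

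RNA was sequenced from microdissected neocortex of mice on a C57BL/6J background at embryonic day 12.5 (E12.5, both hemispheres) and postnatal day 5 (P5, a single hemisphere). At each stage Chd8+/+ mice, with 2 intact alleles of the chromatin remodeler gene Chd8, were compared with Chd8+/- mice, with 1 intact and 1 null allele, in which exon 3 had been deleted in the germline with a β-actinCre transgene that was bred out afterwards. The 4 groups, E12.5 Chd8+/+, E12.5 Chd8+/-, P5 Chd8+/+ and P5 Chd8+/-, held 3 libraries each, none of them treated, and whether a library came from a single animal is not given, so that p-values measure the spread between these libraries. The null allele is carried by every cell, so that a difference cannot be assigned to a cell type.

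Each library held between 38774591 and 54695236 counts, with a median of 45461819, and a member of the list had between 227 counts (Spry4) and 13047 counts (Fgfr3) in a library. Values are CPM, the counts scaled to a common library total with TMM factors over the 12 libraries, and RPKM, the same value per kilobase of exon, where levels of different genes are set side by side. Chd8 fell by 0.51 on the log2 scale at E12.5 and by 0.61 at P5 in Chd8+/- libraries, with no overlap between genotypes. Radial glia and ganglionic eminence markers were both detected at E12.5, the latter at a summed 210.2 to 243 CPM in Chd8+/+ libraries. At P5, genes of striatal neurons and choroid plexus were detected beside those of cortical excitatory neurons and astrocytes. The library of E12.5 Chd8+/- replicate 2 stood apart, with a summed 597 CPM of meningeal markers against 251 to 388 in the other E12.5 libraries and 410.4 CPM of excitatory neuron markers against 531 to 675. Without it, as with it, no member was called between genotypes at E12.5. P5 Chd8+/- replicate 3 also stood apart: the counts of 2 libraries of a group differed by a chi-squared over degrees of freedom of 49.65 and 43.7 where it was 1 of them, and by 7.09 to 18.1 in the other 10 pairs.

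Between E12.5 and P5 the members followed 3 patterns in both genotypes. The 3 receptor genes and Spry1 fell, by 1.99-fold (Fgfr1) to 3.36-fold (Fgfr3) in Chd8+/+ libraries. Spry2, Spry4 and Etv4 rose, by 2.302-fold to 2.86-fold. Etv1, Etv5 and Dusp6 moved least, their P5 means lying between 0.916 and 1.33 times their E12.5 means. All 10 were called in Chd8+/+ libraries, 5 higher and 5 lower at P5, and 9 in Chd8+/- libraries, 4 higher and 5 lower (edgeR's quasi-likelihood test, Benjamini-Hochberg adjusted p under 0.05). Of all genes tested, 41.4% were called higher and 41.7% lower in Chd8+/+ libraries, and 41.3% and 41.6% in Chd8+/- libraries, so that a stage call as such sets no member apart. The median log2 fold change was 0.031 over the members and -0.018 over all genes in Chd8+/+ libraries. The stages were counted in separate tables and differ in the number of hemispheres taken, so that stage, sequencing set and dissection cannot be told apart. In these bulk samples fewer cells of a type and less RNA per cell cannot be told apart either.

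Cell type markers moved with stage as well. In Chd8+/+ libraries the summed CPM of 8 radial glia markers was 2631 to 2834 at E12.5 and 1074 to 1246 at P5 (6 called lower and 2 higher), and that of 4 intermediate progenitor markers 414 to 436 and 27.2 to 30.5 (4 called lower). That of 6 astrocyte markers was 237 to 239 and 1087 to 1115 (5 called higher). Excitatory neuron, striatal neuron and choroid plexus markers had higher sums at P5. They were 531 to 616 and 1209 to 1303 for 6 excitatory neuron markers (4 called higher and 1 lower), 14.1 to 16.8 and 267 to 290.4 for 6 striatal neuron markers (6 called higher) and 90.7 to 148 and 441 to 572 for 7 choroid plexus markers (5 called higher and 2 lower). The sum of 5 GABAergic interneuron markers was lower at P5, at 578 to 606 and 446 to 463 (2 called lower and 1 higher). The part of these cell types in the members' stage changes was not tested.

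**Figure D1:**
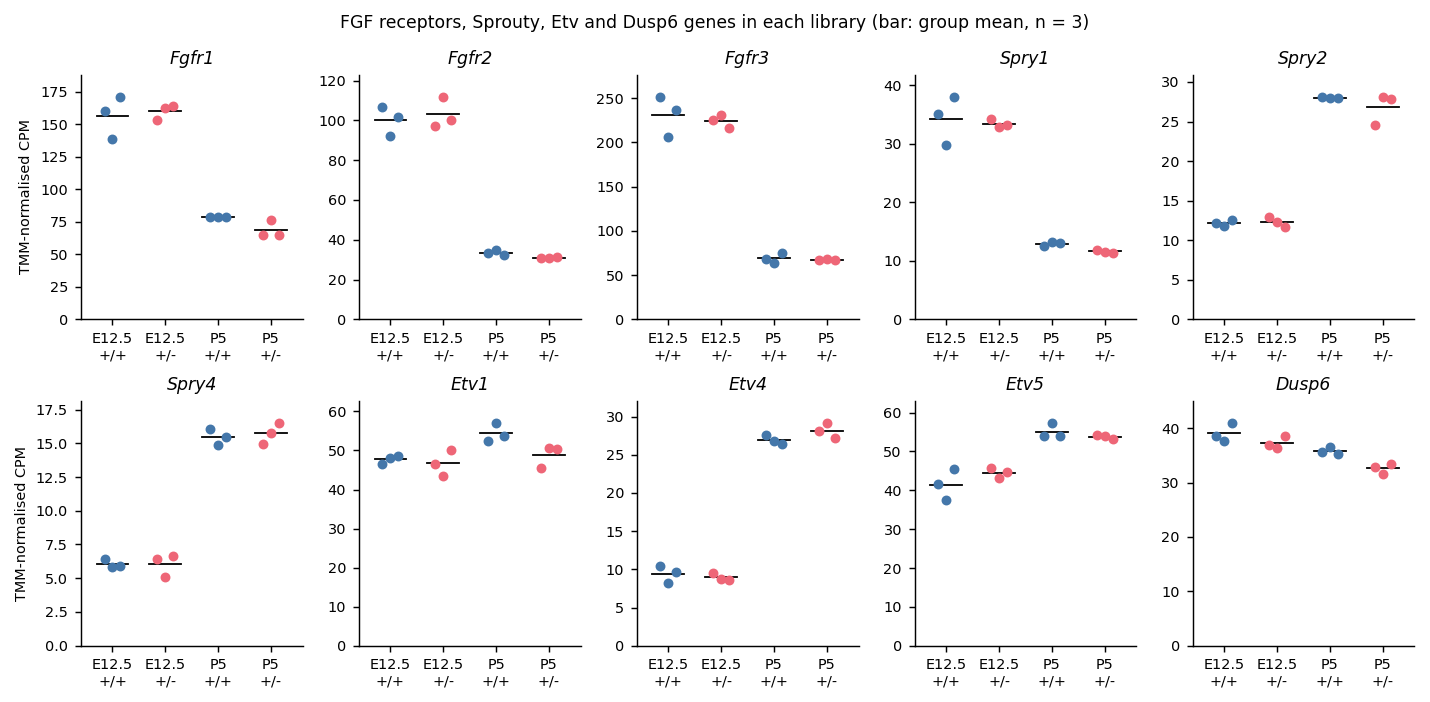
TMM-normalised CPM of each of the 10 genes in each library (points, blue for Chd8+/+ and red for Chd8+/-), with the mean of 3 libraries as a black bar and every axis starting at 0. Fgfr1, Fgfr2, Fgfr3 and Spry1 are lower at P5 than at E12.5, Spry2, Spry4 and Etv4 are higher, and Etv1, Etv5 and Dusp6 change little.

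Among the receptor genes, Fgfr3 (ENSMUSG00000054252, chromosome 5, 33721674 to 33737068, plus strand, GRCm38) had the highest level per exon length at E12.5. It marks radial glia along a caudal to rostral gradient in the early cortex and astrocytes later on. In Chd8+/+ libraries it was at 252, 206 and 237 CPM at E12.5 and at 67.8, 63.6 and 75.4 CPM at P5, and in Chd8+/- libraries at 225, 231 and 216 CPM and at 67.1, 68.4 and 66.7 CPM. Every P5 library was below every E12.5 library, and the genotypes overlapped at both stages. The log2 fold change from E12.5 to P5 was -1.75 ± 0.070 (SE) in Chd8+/+ libraries and -1.73 ± 0.070 in Chd8+/- libraries (edgeR adjusted p = 5.83e-12 and 6.47e-12).

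Fgfr2 (ENSMUSG00000030849, chromosome 7, 130162451 to 133123350, minus strand) has an annotated span that overlaps 44 other genes. Of its 7240 exon bases, 314 lie upstream of the RefSeq start. It encodes a receptor expressed in ventricular zone progenitors and, later, in glia and choroid plexus. It was at 107, 92.2 and 102 CPM in Chd8+/+ and 97.3, 112 and 100.4 CPM in Chd8+/- libraries at E12.5, the highest value being that of E12.5 Chd8+/- replicate 2. At P5 it was at 33.5, 34.7 and 32.5 CPM in Chd8+/+ and 30.7, 31.1 and 31.5 CPM in Chd8+/- libraries. The stages did not overlap, and the log2 fold changes of -1.58 ± 0.062 and -1.73 ± 0.062 were close to those of Fgfr3 (edgeR adjusted p = 4.35e-12 and 1.68e-12). Fgfr1 (ENSMUSG00000031565, chromosome 8, 25513654 to 25575714, plus strand), the receptor with the broadest expression in neural progenitors and neurons, fell least of the 3. It was at 160.4, 139 and 171 CPM in Chd8+/+ and 153, 163 and 164 CPM in Chd8+/- libraries at E12.5. At P5 the Chd8+/+ libraries were at 78.5, 78.99 and 78.7 CPM, the closest agreement of any receptor and group, and the Chd8+/- libraries at 65.0, 76.5 and 64.9 CPM. The spread of these Chd8+/+ libraries, 0.305% of their mean, was below the 1.64% of counting error alone. The log2 fold change between stages was -0.99 ± 0.072 in Chd8+/+ and -1.22 ± 0.073 in Chd8+/- libraries (edgeR adjusted p = 6.88e-09 and 6.87e-10).

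The make-up of the receptors changed as well. Per exon length, Fgfr3 made up 49.4% ± 1.02 (SD, n = 3) of the summed receptor RPKM in E12.5 Chd8+/+ libraries and 40.1% ± 2.35 at P5, while Fgfr1 went from 29.5% ± 1.296 to 40.5% ± 1.18. Fgfr2 had 21.2% ± 0.561 and 19.4% ± 1.17. The share of each receptor was apart between stages in both genotypes, and at P5 the shares of Fgfr1 and Fgfr3 overlapped in Chd8+/+ libraries. The summed receptor RPKM was 65.5 ± 5.99 at E12.5 and 23.96 ± 0.671 at P5 in Chd8+/+ libraries, and 65.3 ± 2.19 and 22.2 ± 0.933 in Chd8+/- libraries. Part of the exons of 3 receptor genes also lies in exons of another gene, 2.02% for Fgfr1, 4.34% for Fgfr2 (with Ctbp2) and 13.9% for Fgfr3. For Fgfr1 and Fgfr3 the other gene is on the opposite strand, and where counting did not use strand, reads from these bases cannot be told apart. Ctbp2 is on the same strand as Fgfr2, so that strand does not separate their reads in any case.

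The Sprouty genes encode inhibitors of receptor tyrosine kinase signalling that are themselves induced by ERK. They moved in opposite directions. Spry1 (ENSMUSG00000037211, chromosome 3, 37639947 to 37644598, plus strand) fell with the receptors, from 35.03, 29.7 and 38.05 CPM to 12.6, 13.3 and 12.98 CPM in Chd8+/+ libraries and from 34.2, 32.8 and 33.2 CPM to 11.9, 11.5 and 11.4 CPM in Chd8+/- libraries. Spry2 (ENSMUSG00000022114, chromosome 14, 105891949 to 105896819, minus strand) rose, from 12.2, 11.7 and 12.5 CPM to 28.05, 27.98 and 27.9 CPM in Chd8+/+ libraries and from 12.9, 12.3 and 11.6 CPM to 24.6, 28.1 and 27.8 CPM in Chd8+/- libraries. Neither gene's stages overlapped, and the lowest P5 value of Spry2 was that of P5 Chd8+/- replicate 1. The log2 fold change in Chd8+/+ and in Chd8+/- libraries was -1.40 ± 0.076 and -1.52 ± 0.077 for Spry1, and 1.20 ± 0.063 and 1.13 ± 0.063 for Spry2 (edgeR adjusted p between 9.58e-11 and 3.10e-10).

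The 250 bases before the RefSeq start site of Spry1 and Spry2 (GRCm38.p6, 5′ to 3′) are shown because these close relatives moved in opposite directions. They lie at chr3:37639697-37639946 on the plus strand for Spry1 and at chr14:105896820-105897069 on the minus strand for Spry2. Capitals mark GGAA, the core bound by Ets factors such as the Etv proteins, or its reverse complement TTCC.
Spry1: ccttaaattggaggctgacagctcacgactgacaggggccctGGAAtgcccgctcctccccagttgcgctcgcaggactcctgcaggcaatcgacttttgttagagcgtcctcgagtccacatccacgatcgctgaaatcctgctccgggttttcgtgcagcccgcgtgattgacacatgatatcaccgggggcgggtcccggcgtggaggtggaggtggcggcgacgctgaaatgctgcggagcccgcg
Spry2: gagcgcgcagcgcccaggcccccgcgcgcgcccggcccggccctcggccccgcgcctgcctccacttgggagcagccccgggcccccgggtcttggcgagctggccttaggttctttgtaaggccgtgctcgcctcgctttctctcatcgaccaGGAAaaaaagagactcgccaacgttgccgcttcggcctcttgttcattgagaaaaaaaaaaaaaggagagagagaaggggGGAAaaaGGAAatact
In the whole windows of 300 bases, from 250 bases before to 50 after the start, the motif GGAA was found 1 time for Spry1 and 5 times for Spry2, counting both strands. All matches of Spry1 and the 3 in capitals of Spry2 lie before the start. Of the 32851 windows of all genes, 95.98% held the motif at least 1 time, with a median of 3, and 28.6% held it 5 times or more. The GC box GGGCGG (both strands) was found 1 time for Spry1 and not for Spry2, against 35.7% of all windows. A match describes the sequence and is no evidence of binding.

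Spry4 (ENSMUSG00000024427, chromosome 18, 38586268 to 38601268, minus strand), the member with the fewest counts at E12.5, rose like Spry2. It was at 6.40, 5.84 and 5.94 CPM in Chd8+/+ and 6.39, 5.08 and 6.63 CPM in Chd8+/- libraries at E12.5, where E12.5 Chd8+/- replicate 2 was lowest. At P5 it was at 16.04, 14.9 and 15.5 CPM and 14.95, 15.7 and 16.5 CPM. All P5 libraries were above all E12.5 libraries, and the log2 fold change was 1.35 ± 0.091 in Chd8+/+ and 1.38 ± 0.092 in Chd8+/- libraries (edgeR adjusted p = 2.67e-09 and 2.25e-09).

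The leading Sprouty gene changed with stage while the family's sum changed little. Spry1 made up 62.1% ± 2.29 of the summed Sprouty RPKM in E12.5 Chd8+/+ libraries and 20.99% ± 0.584 at P5, and Spry2 went from 30.9% ± 1.79 to 63.1% ± 0.0638. In Chd8+/- libraries the share of Spry1 was 61.5% ± 0.597 and 19.7% ± 1.48. The sum was 18.9 ± 1.65 RPKM at E12.5 and 21.3 ± 0.0313 RPKM at P5 in Chd8+/+ libraries, and 18.7 ± 0.567 and 20.3 ± 0.988 RPKM in Chd8+/- libraries. Of the Spry1 exon bases, 24.4% are shared with the antisense gene Gm42922, and where counting did not use strand, reads from these bases cannot be told apart between the genes.

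**Figure D2:**
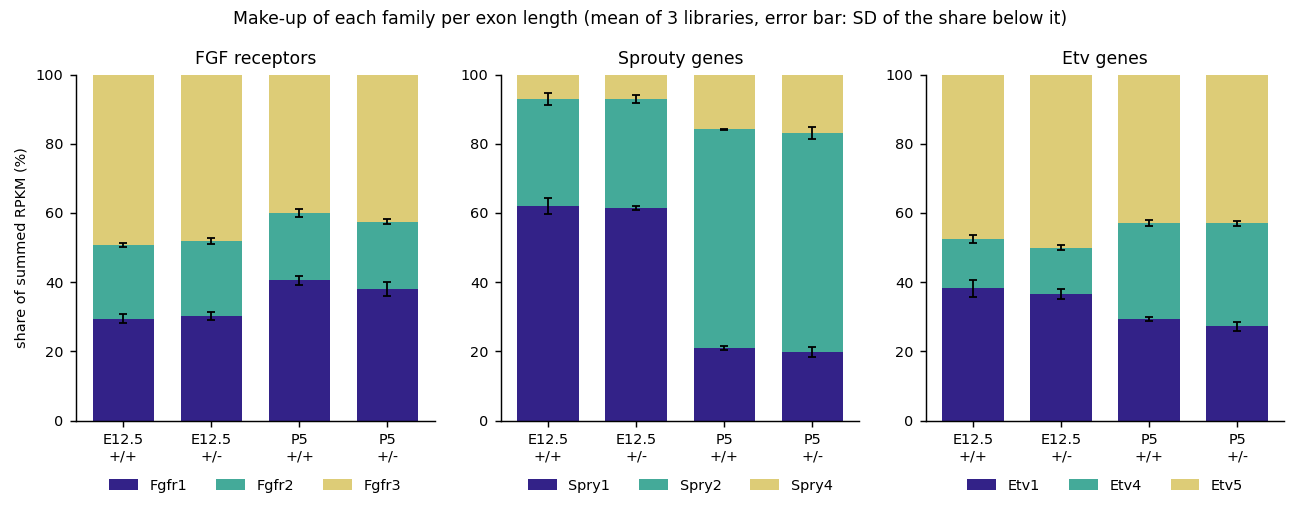
Share of each gene in the summed RPKM of its family (%), as the mean of 3 libraries in each stage and genotype, with the SD of the share below each error bar. Spry1 leads the Sprouty genes at E12.5 and Spry2 at P5, Fgfr1 gains and Fgfr3 loses share among the receptors, and Etv4 gains share among the Etv genes.

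The Etv genes encode Ets transcription factors of the PEA3 group, through which ERK activates its target genes. Etv4 (ENSMUSG00000017724, chromosome 11, 101769742 to 101785371, minus strand) showed the largest rise of the members. In Chd8+/+ libraries it went from 10.4, 8.23 and 9.70 CPM at E12.5 to 27.5, 26.9 and 26.5 CPM at P5, and in Chd8+/- libraries from 9.54, 8.77 and 8.64 CPM to 28.1, 29.2 and 27.2 CPM. The stages were apart in both genotypes, with a log2 fold change of 1.51 ± 0.075 and 1.65 ± 0.076 (edgeR adjusted p = 7.34e-11 and 2.98e-11). Etv5 (ENSMUSG00000013089, chromosome 16, 22381309 to 22439719, minus strand), often expressed together with Etv4, rose less, from 41.7, 37.4 and 45.4 CPM to 53.99, 57.3 and 54.05 CPM in Chd8+/+ libraries and from 45.7, 43.3 and 44.8 CPM to 54.2, 53.9 and 53.2 CPM in Chd8+/- libraries. Its stages did not overlap either, and its log2 fold change was 0.41 ± 0.061 and 0.27 ± 0.062 (edgeR adjusted p = 2.17e-05 and 9.38e-04).

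Etv1 (ENSMUSG00000004151, chromosome 12, 38779380 to 38868215, plus strand), also known as Er81, marks layer 5 projection neurons in the postnatal cortex. It was at 46.6, 48.1 and 48.5 CPM in Chd8+/+ and 46.5, 43.5 and 50.2 CPM in Chd8+/- libraries at E12.5, and at 52.5, 57.01 and 53.6 CPM and 45.6, 50.7 and 50.5 CPM at P5. The Chd8+/+ stages did not overlap and differed by 0.19 ± 0.061 on the log2 scale (edgeR adjusted p = 0.0103), but the call was lost without E12.5 Chd8+/+ replicate 1 (adjusted p = 0.0686) and without P5 Chd8+/+ replicate 2 (adjusted p = 0.0563). Over its 19 alternatives the adjusted p ranged from 0.00279 to 0.0686. In Chd8+/- libraries the stages overlapped and Etv1 was not called, its estimate being 0.066 ± 0.061 (95% interval -0.065 to 0.20, edgeR adjusted p = 0.326). That these stage changes differ between genotypes was not shown, the interaction being -0.12 ± 0.086 (edgeR adjusted p = 0.649). Per length, Etv5 was the highest of the 3 in every group, and the share of Etv4 in the summed Etv RPKM went from 14.3% ± 1.21 to 27.7% ± 0.938 in Chd8+/+ libraries.

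Dusp6 (ENSMUSG00000019960, chromosome 10, 99263231 to 99267488, plus strand) encodes a cytoplasmic phosphatase that inactivates ERK, and is among the most direct readouts of FGF receptor activity in the embryo. Its 250 bases before the RefSeq start site, at chr10:99262981-99263230 on the plus strand (GRCm38.p6, 5′ to 3′), are shown because Dusp6 changed least with stage of the inhibitor genes and because GGAA cores, in capitals, or TTCC are frequent there.
Dusp6: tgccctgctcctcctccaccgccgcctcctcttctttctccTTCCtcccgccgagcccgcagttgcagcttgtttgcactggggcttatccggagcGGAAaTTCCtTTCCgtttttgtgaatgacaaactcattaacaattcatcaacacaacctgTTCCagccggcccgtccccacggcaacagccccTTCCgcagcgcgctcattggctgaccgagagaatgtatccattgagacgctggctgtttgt
The window of 300 bases held the motif GGAA 6 times counting both strands, all of them before the start, and 15.7% of all windows held as many or more. It held neither GGGCGG nor TATAAA, on either strand, against 13.6% of all windows with TATAAA. RefSeq windows were found for 7 of the 10 members, and the number of GGAA matches ranged from 0 (the first window of Etv5) to 6.

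Dusp6 was at 38.5, 37.7 and 40.95 CPM in E12.5 Chd8+/+ libraries and at 35.6, 36.5 and 35.2 CPM at P5, and in Chd8+/- libraries at 36.8, 36.4 and 38.6 CPM and 32.9, 31.6 and 33.4 CPM. The P5 values were below the E12.5 values in both genotypes, by little more than the spread between libraries. The log2 fold change was -0.13 ± 0.051 in Chd8+/+ libraries (edgeR adjusted p = 0.0338) and -0.19 ± 0.052 in Chd8+/- libraries (edgeR adjusted p = 0.00322). In Chd8+/+ libraries this call was lost with RLE size factors, upper-quartile factors, DESeq2, all genes with at least 1 count and the replicate number as a block (adjusted p = 0.184, 0.106, 0.222, 0.0824 and 0.0524), and without E12.5 Chd8+/+ replicate 3, P5 Chd8+/+ replicate 1 or P5 Chd8+/+ replicate 3 (adjusted p = 0.1402, 0.0752 and 0.08298). Over its 19 alternatives the adjusted p ranged from 0.00306 to 0.222.

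**Figure D3:**
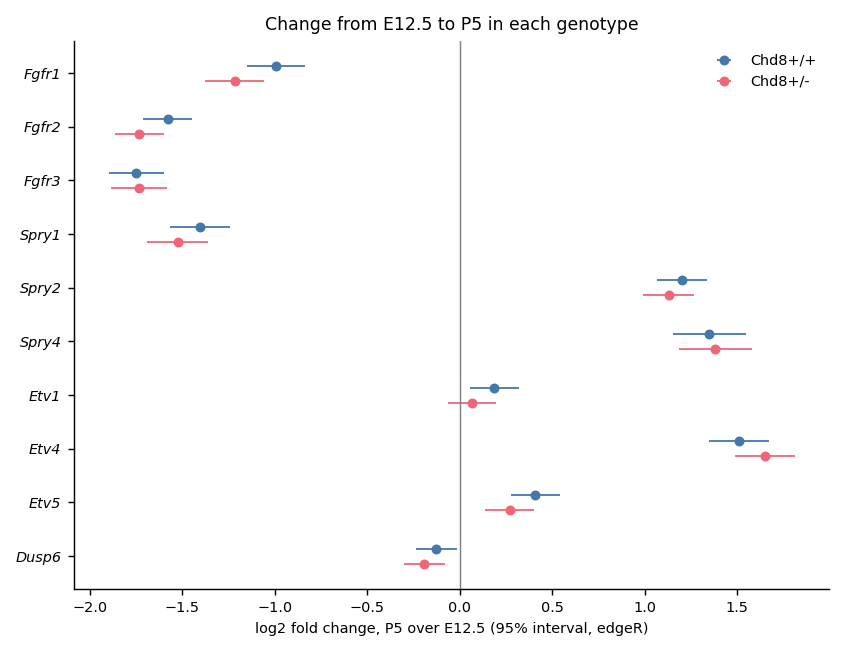
Log2 fold change from E12.5 to P5 of each gene, with its 95% interval from edgeR, in Chd8+/+ (blue) and Chd8+/- (red) libraries. The intervals of the genotypes overlap for every gene, and those of Etv1 and Dusp6 lie close to 0.

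The summed level of 6 feedback genes was higher at P5 while that of the receptors was lower, although Spry1 and Dusp6 among the 6 were lower at P5. Over Spry1, Spry2, Spry4, Etv4, Etv5 and Dusp6, with Etv1 left out of the sum, the feedback RPKM was 46.1 ± 3.44 in E12.5 Chd8+/+ libraries and 56.2 ± 0.709 at P5, and relative to the summed receptor RPKM it went from 0.705 ± 0.0307 to 2.35 ± 0.09296. In Chd8+/- libraries this ratio was 0.702 ± 0.0384 at E12.5 and 2.44 ± 0.0845 at P5. The ranges of this ratio overlapped between genotypes at both stages, and those of the stages were far apart. At P5 the sums themselves were lower in Chd8+/- libraries without overlap. They were 55.5 to 56.9 and 53.2 to 54.7 RPKM for the feedback genes and 23.4 to 24.7 and 21.6 to 23.3 RPKM for the receptors. Of all single genes tested, 14.8% were lower in this sense. Not every member of the sums followed: Fgfr3, Spry2, Spry4, Etv4 and Etv5 overlapped between genotypes, Spry4 and Etv4 with higher means in Chd8+/- libraries.

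The order of the members per exon length changed between stages. At E12.5 in Chd8+/+ libraries Fgfr3 was highest, at 32.3 ± 3.24 RPKM, followed by Fgfr1 at 19.3 ± 2.03 RPKM. Dusp6, Fgfr2, Spry1 and Etv5 came next, at 13.97 ± 0.605, 13.8 ± 1.01, 11.8 ± 1.45 and 10.1 ± 0.968 RPKM, each with libraries overlapping those of its neighbour. Etv1, Spry2, Etv4 and Spry4 followed in that order without overlap, down to 1.32 ± 0.0653 RPKM for Spry4. At P5 Etv5 and Spry2 led, at 13.4 ± 0.463 and 13.4 ± 0.0314 RPKM with overlapping libraries, ahead of Dusp6 at 12.8 ± 0.242 RPKM. Fgfr1, Fgfr3 and Etv1 overlapped between 8.88 and 10.5 RPKM, followed by Etv4 at 8.69 ± 0.173 RPKM. Fgfr2 and Spry1 overlapped each other at 4.64 ± 0.155 and 4.46 ± 0.119 RPKM, and Spry4 was again lowest at 3.37 ± 0.125 RPKM. In Chd8+/- libraries the first and last places were the same at each stage.

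Between the genotypes at E12.5, none of the 10 members differed beyond the spread between libraries. No member's groups were apart, whereas 5.76% of genes were lower and 5.60% higher in Chd8+/- without overlap. Log2 fold changes lay between -0.075 (Etv4) and 0.10 (Etv5), with 95% intervals that reached no further than -0.30 and 0.26. The lowest adjusted p was 0.954, no member had an unadjusted p under 0.05 (edgeR's quasi-likelihood test), and DESeq2 called none either. Over all genes the test called 0.00553%, which is Chd8 alone of 18081. E12.5 Chd8+/+ replicate 2 had the lowest value of the stage for 6 of the 10 members, Fgfr1, Fgfr2, Fgfr3, Spry1, Etv4 and Etv5, and without it the log2 fold changes of Fgfr1, Fgfr2 and Spry2 changed sign, to between -0.048 and -0.0057.

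At P5, 5 members were lower in all Chd8+/- libraries than in all Chd8+/+ libraries, Fgfr1, Fgfr2, Spry1, Etv1 and Dusp6, and none was higher without overlap. Over all genes tested, 14.8% were lower and 8.55% higher in this sense. The differences were small, with group means between 0.874 (Fgfr1) and 0.926 (Fgfr2) times those of Chd8+/+ libraries. No member was called by edgeR, which called 0.00536% of genes (Chd8 alone), or by DESeq2, which called 5.28%. An unadjusted edgeR p under 0.05 was found for Fgfr1, Spry1, Etv1 and Dusp6, 4 of 10 members, all lower in Chd8+/- libraries, against 9.77% of all genes with such a p and direction.

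Fgfr1 had the largest difference, from 78.7 ± 0.2401 CPM in Chd8+/+ to 68.8 ± 6.66 CPM in Chd8+/- libraries (SD, n = 3). Replicates 1 and 3 of P5 Chd8+/- were at 65.0 and 64.9 CPM, and replicate 2 at 76.5 CPM lay just below the lowest Chd8+/+ library. The Chd8+/+ libraries spread by less than counting error alone (0.305% against 1.64% of their mean). The log2 fold change was -0.18 ± 0.057 (95% interval -0.31 to -0.052, edgeR adjusted p = 0.163, DESeq2 adjusted p = 0.06799). The gene was called by edgeR without P5 Chd8+/- replicate 2, with a log2 fold change of -0.26 and an adjusted p of 0.0205, and when all genes with at least 1 count were tested (adjusted p = 0.0244). Those fits called more genes throughout, 1.72% and 3.18% of all genes tested. Over all 14 alternatives its adjusted p ranged from 0.0205 to 0.413.

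Spry1 was at 12.96 ± 0.346 CPM in Chd8+/+ and 11.6 ± 0.282 CPM in Chd8+/- libraries, which differed by -0.14 ± 0.064 on the log2 scale (95% interval -0.28 to -0.00053, edgeR adjusted p = 0.2803). Etv1 was at 54.4 ± 2.35 and 48.9 ± 2.87 CPM, with a log2 fold change of -0.14 ± 0.051 (-0.25 to -0.023, edgeR adjusted p = 0.2099), and its lowest value was again that of P5 Chd8+/- replicate 1. Dusp6 was at 35.8 ± 0.677 and 32.6 ± 0.947 CPM, with a log2 fold change of -0.12 ± 0.046 (-0.22 to -0.014, edgeR adjusted p = 0.231). These 3 genes act at different steps, Etv1 as a transcription factor and the other two as inhibitors, and their estimates were within the SE of each other. Fgfr2 differed by -0.095 ± 0.047 (-0.20 to 0.0095, edgeR adjusted p = 0.324), and by -0.055 when the trend with gene length was removed.

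The other 5 members overlapped between genotypes at P5. Spry4 and Etv4 had estimates above 0, of 0.040 (-0.10 to 0.18) and 0.078 (-0.033 to 0.19), and Fgfr3, Spry2 and Etv5 estimates just below it, of -0.017, -0.044 and -0.019. The interval of Spry4, the widest of the 5, leaves room for changes of up to 0.18 on the log2 scale, and that of Etv4 for changes of up to 0.19. The median over the 10 members was -0.069, against 0.00169 over all genes tested.

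**Figure D4:**
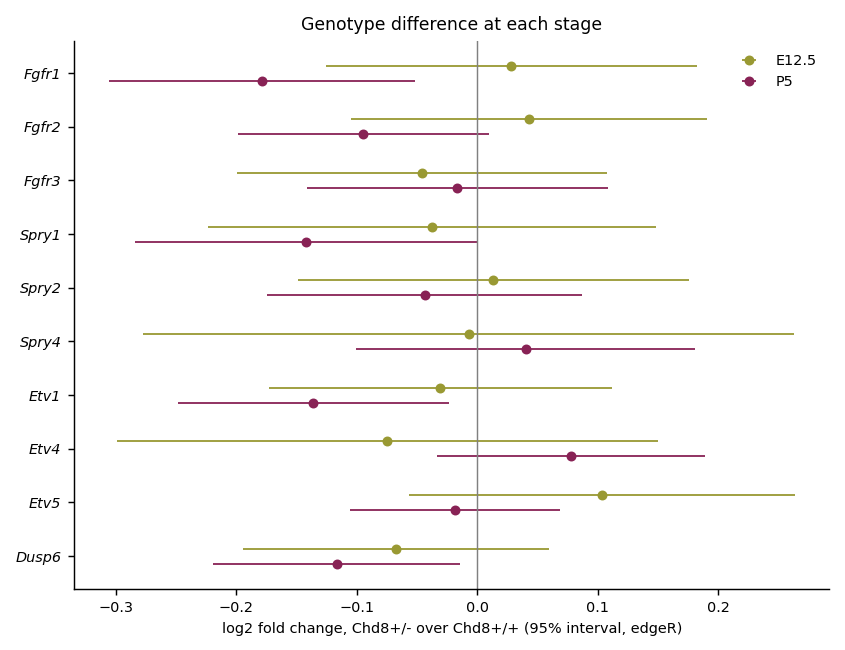
Log2 fold change of Chd8+/- over Chd8+/+ libraries for each gene, with its 95% interval from edgeR, at E12.5 (olive) and P5 (purple). At E12.5 every interval includes 0. At P5 those of Fgfr1, Spry1, Etv1 and Dusp6 lie below 0, between -0.31 and just under 0, and no adjusted p passes 0.05.

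Several sets of cell type markers had lower values in Chd8+/- libraries at P5, and others did not. The summed CPM of 7 choroid plexus markers was 441 to 572 in Chd8+/+ and 322 to 380.3 in Chd8+/- libraries, with lower estimates for 7 of 7 markers and an unadjusted edgeR p under 0.05 for 6. For 6 striatal neuron markers it was 267 to 290.4 and 198 to 242, with lower estimates and a p under 0.05 for 6 of 6, and for 5 endothelial markers 187 to 213 and 168 to 187, with lower estimates for 4 of 5. Markers of intermediate progenitors, interneurons and the ganglionic eminence had lower values as well. Summed intermediate progenitor markers were at 27.2 to 30.5 and 22.9 to 24.9 CPM (4 of 4 estimates lower, 3 with a p under 0.05), GABAergic interneuron markers at 446 to 463 and 355 to 428 CPM (5 of 5 lower, 3 with a p under 0.05) and ganglionic eminence markers at 22.05 to 22.2 and 18.9 to 21.01 CPM (3 of 3 lower, 1 with a p under 0.05), none of them with overlap. Radial glia markers were mixed, with lower estimates for 6 of 8, a p under 0.05 for 2 that were lower (Pax6 and Vim) and 1 that was higher (Hes5, log2 fold change 0.22), and overlapping sums of 1074 to 1246 and 1106 to 1171 CPM. Meningeal markers had higher estimates for 4 of 5, 1 with a p under 0.05. Markers of oligodendrocyte precursors and of microglia had higher estimates for 3 of 5 each, 0 with a p under 0.05. After adjustment edgeR called 0 of the 79 markers tested at P5, against 33 with an unadjusted p under 0.05, a p that 17.8% of all genes tested had. It called 20 of 81 when all genes with at least 1 count were tested and 11 of 79 without P5 Chd8+/- replicate 2. Those fits called 3.18% and 1.72% of all genes. DESeq2, which called 5.28% of all genes, called 13 of 63 markers, all lower in Chd8+/- libraries. Among them were 3 of 3 choroid plexus, 4 of 6 striatal neuron and 3 of 5 endothelial markers. Summed markers of cortical excitatory neurons (1209 to 1303 and 1200.5 to 1264) and of astrocytes (1087 to 1115 and 955 to 1127) overlapped, but 2 of 6 excitatory neuron markers, Neurod6 and Bcl11b, had lower values with a p under 0.05 (log2 fold change -0.14 and -0.28) and were called by DESeq2. At E12.5, endothelial markers had lower sums too, at 211 to 213 and 186 to 197 CPM without overlap (5 of 5 estimates lower, 2 with a p under 0.05), and interneuron markers had 5 of 5 estimates lower, 2 with a p under 0.05 and overlapping sums. No marker was called at E12.5 by edgeR (0 of 78) or DESeq2 (0 of 68). Of all genes tested there, 5.15% had an unadjusted edgeR p under 0.05 and 5.76% were lower without overlap.

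P5 Chd8+/- replicate 1 had the lowest sum of the 6 P5 libraries for markers of striatal neurons, GABAergic interneurons, intermediate progenitors, astrocytes, oligodendrocytes, their precursors and endothelium, and the lowest value of Fgfr2, Spry2 and Etv1. Its astrocyte markers summed to 955 CPM, against 1084 to 1127 in the other 5. The part of these cell types in the lower values of Fgfr1, Fgfr2, Spry1, Etv1 and Dusp6 was not tested. Without that library the log2 fold changes of these 5 genes were -0.14, -0.086, -0.16, -0.089 and -0.12. P5 Chd8+/- replicate 3, whose counts stood apart, had the lowest P5 value of Fgfr1, Spry1 and Etv5, and without it the same 5 log2 fold changes were -0.13, -0.10, -0.12, -0.15 and -0.12, with an unadjusted edgeR p of 0.0569, 0.134, 0.144, 0.0269 and 0.0553.

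Whether the stage change differed between genotypes was tested as an interaction. No member was called, as for all genes (edgeR called 0% of 19676, with 1972 at an unadjusted p under 0.05, and DESeq2 called 8 genes, none of them a member). Fgfr1 had the largest estimate, -0.22 ± 0.10 (95% interval -0.44 to -0.0043, unadjusted p = 0.0462, edgeR adjusted p = 0.4898), its fall from E12.5 to P5 being the larger one in Chd8+/- libraries. The estimates of the other 9 members lay between -0.15 (Fgfr2) and 0.14 (Etv4).

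Several ligands changed more with stage than any member did. Of the 18 secreted FGF genes listed, 14 passed the filter, of which 8 were called higher and 5 lower at P5 in Chd8+/+ libraries, and 8 and 4 in Chd8+/- libraries. The best known of those that fell are ligands of the embryonic midline. Fgf15 went from 38.9 ± 4.53 CPM to 0.385 ± 0.0378 CPM in Chd8+/+ libraries (SD, n = 3), and Fgf17 from 19.3 ± 2.102 CPM to 0.542 ± 0.164 CPM. Fgf8, the principal rostral patterning signal, was low at E12.5 already, at 1.96 ± 0.304 CPM, and close to undetected at P5, at 0.0362 ± 0.0153 CPM. Those that rose include Fgf1, from 0.102 ± 0.0737 CPM to 14.03 ± 0.647 CPM, and Fgf9, from 2.17 ± 0.341 CPM to 8.58 ± 0.283 CPM, both made by neurons, and Fgf18, from 1.31 ± 0.298 CPM to 3.299 ± 0.426 CPM. None was called between genotypes at either stage by edgeR or DESeq2, the log2 fold change at E12.5 being 0.065 for Fgf15, -0.035 for Fgf17 and -0.13 for Fgf8 (edgeR adjusted p = 0.9802, 0.992 and 0.977). The 4 FGF homologous factors, which stay inside the cell and modulate sodium channels rather than bind receptors, were all called higher at P5 in both genotypes, Fgf12 with a log2 fold change of 4.76 and Fgf13 of 2.60 in Chd8+/+ libraries.

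Of the 4 other receptor and co-receptor genes, 3 were called higher and 1 lower at P5 in Chd8+/+ libraries. Fgfrl1, a receptor without a kinase domain, fell from 22.2 ± 2.03 to 14.5 ± 2.02 CPM, while Fgfr4 stayed under 1 CPM in the mean of every group. Kl, the co-receptor Klotho, which is abundant in choroid plexus, was at 5.37 ± 0.132 CPM in P5 Chd8+/+ and 3.51 ± 0.473 CPM in P5 Chd8+/- libraries (log2 fold change -0.60, edgeR adjusted p = 0.09497), lower together with the choroid plexus markers, whose part in it was not tested. Among 10 receptor adaptors, 8 were called lower and 2 higher at P5 in both genotypes, with a median log2 fold change of -0.45 in Chd8+/+ libraries. Ptpn11, Plcg1 and Sos1, which couple the receptor to Ras and to calcium, changed by -0.46, -0.44 and -0.36, and the adaptor Grb2 by 0.99. Among 11 genes of the Ras to ERK relay, 8 were called higher and 3 lower in Chd8+/+ libraries, with Mapk3, which encodes the kinase ERK1, changed by 1.42 and Nras by -1.15.

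Other inhibitors of the pathway were divided in direction as well. Of 10 matched genes, 4 were called higher and 6 lower at P5 in Chd8+/+ libraries. Dusp4, a nuclear ERK phosphatase, fell from 138 ± 9.901 CPM to 20.8 ± 1.33 CPM, and Il17rd (Sef), a membrane inhibitor of FGF receptors, from 59.6 ± 6.44 CPM to 17.4 ± 1.59 CPM. Spred1 and Spred2, relatives of the Sprouty genes, changed by -0.22 and 0.27, and the Ras GTPase activators Nf1 and Rasa1 by -0.52 and -0.81. Of 9 further ERK response genes, 7 were called higher and 2 lower in both genotypes. Ccnd1 (cyclin D1), which drives progenitors through G1, fell from 349.6 ± 28.4 CPM to 30.6 ± 4.73 CPM, whereas the immediate early gene Egr1 rose from 5.48 ± 0.293 CPM to 27.9 ± 1.64 CPM and Myc from 14.1 ± 0.759 CPM to 40.4 ± 1.93 CPM.

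Between genotypes, edgeR called 0 of the 65 genes of these 8 lists tested at E12.5 and 0 of 68 at P5, where 3 and 14 had an unadjusted p under 0.05. DESeq2 called 0 of 54 at E12.5 and 4 of 51 at P5, where it called 5.28% of all genes. The 4 were heparan sulfate modifiers that were lower in Chd8+/- libraries, Hs6st2, Sulf1, Sulf2 and Ndst1, listed here after their values were seen. With all genes of at least 1 count tested, edgeR called 6 of 71 at P5, and without P5 Chd8+/- replicate 2 it called 4 of 68. Those fits called 3.18% and 1.72% of all genes. The heparan sulfate modifiers, enzymes that shape the sugar chains through which FGFs bind their receptors, had the lowest median at P5, with 6 of 7 genes lower in Chd8+/- libraries, a median log2 fold change of -0.17 and an unadjusted edgeR p under 0.05 for 5 of 7, against 17.8% of all genes tested. Ndst1 differed by -0.18, Sulf2 by -0.13 and Hs2st1 by -0.017 (edgeR adjusted p = 0.1102, 0.128 and 0.838). The other ERK pathway inhibitors followed, with 7 of 10 estimates below 0, a median of -0.0806 and a p under 0.05 for 3. For the receptor adaptors 8 of 10 estimates were below 0, with a median of -0.037, and for the Ras to ERK relay 6 of 11, with a median of -0.00521.

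**Figure D5:**
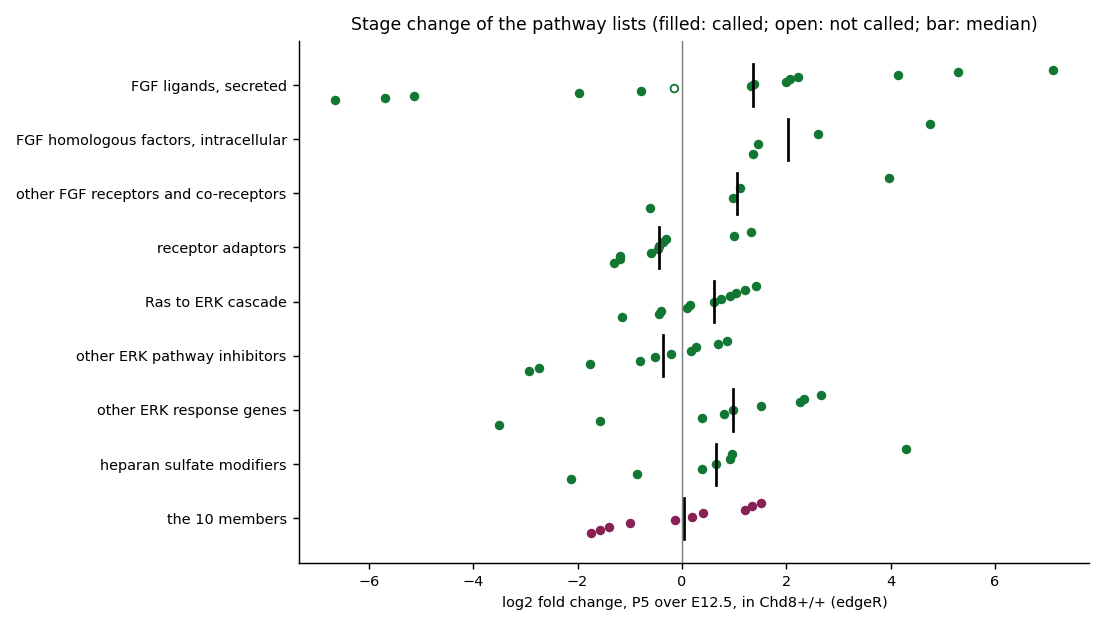
Log2 fold change from E12.5 to P5 in Chd8+/+ libraries (edgeR) of each tested gene of the 8 pathway lists and of the 10 members, 1 point a gene, filled where called (adjusted p under 0.05), with a black bar at the median of each list. The secreted ligands span -6.65 to 7.12, a far wider range than the members' -1.75 to 1.51.

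The genes with the pattern most like each member over the 12 libraries were found by the Euclidean distance between log2 CPM values centred on each gene's mean, which gives a description only. For Fgfr1 they were Zfp609 at 0.215 and Bptf at 0.218, for Fgfr2 Kpnb1 at 0.162 and Ints2 at 0.172 and for Fgfr3 Snap23 at 0.202 and Ppp4r3a at 0.203. For Spry1, Spry2 and Spry4 they were Sfpq at 0.196 and Rprd1b at 0.1999, Cyfip2 at 0.155 and Ttbk1 at 0.161, and Gm9885 at 0.136 and Arhgef26 at 0.226. For Etv1, Etv4 and Etv5 they were Ccdc47 at 0.128 and Epm2aip1 at 0.171, Adgrg2 at 0.174 and Adgrl1 at 0.1901, and Zc3h7b at 0.144 and Evl at 0.171, and for Dusp6 Srp72 at 0.151 and Map4k5 at 0.162. Among the members themselves the closest pair was Fgfr2 and Fgfr3, at 0.353, followed by Spry2 and Spry4 at 0.4599, whereas the member nearest to Spry1 was Fgfr2, at 0.466, and not another Sprouty gene.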

How the data were processed

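Neocortical RNA was sequenced in 12 libraries, 3 for each of 2 genotypes at 2 stages. The authors trimmed paired-end reads with Trim Galore 0.4.1, aligned them to GRCm38.p4 with TopHat2 2.1.0 and counted them on Ensembl genes with featureCounts 1.5.0. The deposited values are raw counts per gene for each of the 2 runs of a library, without normalization, and the deposited gene length is the summed length of merged exons. Libraries kept strand (dUTP), but the P5 counting command names no strand option, and that of E12.5 is not given in the sources used here.

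Runs were summed, because they agreed far better (chi-squared over degrees of freedom 1.18 to 1.54) than libraries of a group did (7.09 to 18.1, and 43.7 and 49.65 in 2 pairs that hold P5 Chd8+/- replicate 3). Symbols were matched for 46005 of 46603 genes. Genotypes were compared within each stage, and stages within each genotype in a model of all 12 libraries with their interaction, using edgeR 4.0.16 (R 4.3.3; quasi-likelihood test, TMM, filterByExpr with default settings), with Benjamini-Hochberg adjustment over all genes tested and a threshold of 0.05. Intervals are 95%, and RPKM is TMM CPM per kilobase of exon. Patterns were compared on log2(CPM + 0.5). The procedure was tested on simulated data. Alternatives were DESeq2 1.42.0, limma-voom (limma 3.58.1), other scalings (RLE, upper quartile, library totals), all genes with at least 1 count, the replicate number as a block, gene length offsets (loess span 0.5), all 12 libraries in 1 model, and each library left out in turn.

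The members, the pathway and marker lists and the tests were chosen with earlier results of these data known. The genes named are the 10 members, Chd8, the 2 genes nearest in pattern to each member, up to 4 genes of each pathway list with the highest mean CPM, and Fgf8, Fgf15, Fgf17, Fgf18, Spred1, Spred2, Il17rd and Dusp4. Hs6st2, Sulf1 and the markers Pax6, Vim, Hes5, Neurod6 and Bcl11b are named outside this rule, after their values were seen. Ctbp2 and Gm42922 are named for their overlap with members. Promoter windows are from RefSeq (GRCm38.p6). Figures were made with matplotlib 3.10.9.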

Additional observations from a re-analysis of the deposited data

How the results depend on the processing

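The number of members called was 0 between genotypes at E12.5 and 0 for the interaction under every alternative run, and it was 9 or 10 between stages in Chd8+/+ and 9 in Chd8+/- libraries. At P5 it was 0 between genotypes except when all genes with at least 1 count were tested and without P5 Chd8+/- replicate 2, each giving 1 (Fgfr1), where 995 of 31265 and 327 of 19044 genes were called in all, so that leaving out a library gave 0 to 1. No stage change reversed. Calls lost were those of Dusp6 and Etv1 in Chd8+/+ libraries. Dusp6 lost its call with DESeq2 (-0.087), RLE size factors (-0.085), upper-quartile factors (-0.088) and all genes with at least 1 count (-0.13); other scalings moved the median of all genes by at most 0.0594 on the log2 scale.

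Reversals concerned log2 fold changes near 0 that were never called. With gene length offsets Fgfr3 at P5 was 0.023. With a library left out, the genotype differences at E12.5 ranged over -0.048 to 0.095 for Fgfr1, -0.016 to 0.085 for Fgfr2, -0.12 to 0.013 for Fgfr3, -0.13 to 0.042 for Spry1, -0.023 to 0.050 for Spry2, -0.084 to 0.11 for Spry4 and -0.087 to 0.021 for Etv1. At P5 they ranged over -0.072 to 0.059 for Fgfr3, -0.077 to 0.015 for Spry2 and -0.034 to 0.0092 for Etv5, and the interaction over -0.039 to 0.10 for Fgfr3 and -0.073 to 0.13 for Spry4. The cause was not tested.

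With the replicate number as a block, 0 members were called between genotypes at either stage, and Dusp6 lost its stage call in Chd8+/+ libraries (-0.13, adjusted p = 0.0524). At E12.5 the numbers gave no sign of pairing, as deviations of same-numbered libraries correlated at -0.227 to -0.0914. At P5 these correlations were 0.0434 to 0.227, with 2 of 3 over 0.1, so that pairing by number is not settled there. The spread between libraries was above the counting error alone in 27 of the 40 combinations of member and group and below it in 13, so that counting error is a part of the error of these comparisons.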
